A study of Homo sapiens with 24 samples.

Results

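The change from hESCs to day 5 neuroectoderm was measured by RNA sequencing in cells that lack HAR123, a human-accelerated enhancer in an intron of SMG6. The comparison takes 6 of the 24 libraries of the series, 3 from HAR123-KO neuroectoderm after 5 days of differentiation and 3 from HAR123-KO hESCs at day 0, and covers every gene with enough counts. All cells were H9 (WA09), an established human embryonic stem cell line. In HAR123-KO both alleles of the element had been removed with CRISPR-Cas9, hHAR123 cells were unedited, and in cHAR123 and mHAR123 the chimpanzee or mouse ortholog stood in its place, with 3 libraries per genotype and stage. All genotypes were grown as hESCs in StemFlex on Matrigel and were differentiated in KnockOut DMEM with knockout serum replacement, Noggin at 500 ng/ml and SB431542 at 10 µM. The sequenced RNA came from a pair of clones of each genotype, and the labels do not tie libraries to clones. A difference that belongs to a clone therefore cannot be told apart from one that belongs to the deletion.

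Noggin binds BMP ligands and SB431542 blocks the receptors for Nodal, activin and TGFβ, so that cells lose the signals that hold hESCs undifferentiated or lead them to mesoderm, endoderm and surface ectoderm. Cells in this medium take on the character of the neural plate, whose transcription factors include PAX6, SOX1 and OTX2. The border of the neural plate gives rise to the neural crest, a migratory population marked by SOX10, FOXD3, TFAP2A, PAX3, PAX7 and SNAI2.

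Total counts were 23334732, 29406704 and 33009213 in the HAR123-KO hESC libraries and 23218137, 24032592 and 24468989 in HAR123-KO neuroectoderm. Mitochondrial genes took 4.40% to 4.48% of the counts in hESCs and 2.55% to 2.63% in neuroectoderm. Libraries of a stage lay 32.1 to 33.9 apart in Euclidean distance of log2 CPM, and libraries of different stages 194.9 to 196.7. HAR123-KO ESC replicate 3 differed more from the other hESC libraries (chi-square of 3.23 and 4.97 per degree of freedom) than those did from each other (1.68), and its 10 highest genes took 11.4% of its counts against 10.3% and 10.1%. Levels are given in CPM, the count of a gene relative to the library total after scaling with edgeR's TMM method and set to a common depth, and a gene without a count can still be present at up to 3 counts in a library.

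The deleted element is noncoding, so exon counts cannot check the deletion itself. SMG6, the host gene, encodes a factor of nonsense-mediated decay (GRCh38 chromosome 17, 2059839 to 2303785, reverse strand). Its level was 75.6, 77.0 and 78.1 CPM in the 3 hESC libraries and 171, 168 and 158 CPM in the 3 neuroectoderm libraries, without overlap. SMG6 rose by 1.13 on the log2 scale, with a standard error of 0.03 and an adjusted p of 1.27e-38 (quasi-likelihood test of edgeR, adjusted by Benjamini-Hochberg). HIC1, a transcriptional repressor gene whose end overlaps SMG6 on the opposite strand (chromosome 17 from 2054154 to 2063241), had 4, 8 and 7 counts in hESCs and 14, 11 and 13 in neuroectoderm. Its log2 fold change of 1.04 (adjusted p = 0.0185 and standard error 0.42, edgeR) did not pass the threshold, and it was 1.24 and passed when libraries were scaled by total counts alone. In hHAR123, SMG6 had a log2 fold change of 0.63, short of the threshold, and HIC1 rose by 2.25. Neither difference between the genotypes was called, at 0.47 for SMG6 and −1.23 for HIC1. Whether counting used strand is not stated, so reads in the overlap of the 2 genes are uncertain.

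A gene was called when its adjusted p was below 0.01 and its log2 fold change exceeded 1 in either direction. Of 21509 genes tested in HAR123-KO, 4734 rose (22.0%) and 4112 fell (19.1%) from hESCs to neuroectoderm. These are the shares to set beside the counts of each gene list below. The median log2 change of the called genes was 1.75 for those that rose and −1.92 for those that fell. A change over 3 on the log2 scale, which is over 8-fold, was reached by 936 genes that rose and 1153 that fell, and one over 5 by 307 and 459. Without HAR123-KO ESC replicate 3, 4783 genes rose and 4176 fell in all. In 4710 of the genes that rose and 4098 of those that fell, the libraries of the 2 stages did not overlap. The call itself largely entails this, and the share over all genes tested was not computed. Among the risers, 363 had at most 3 counts in every hESC library, and among the fallers 408 had at most 3 counts in every neuroectoderm library. For these genes a fold is given only as a lower bound, against 3 counts per library.

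The genes that rose started low. Their median level was 0.826 CPM in hESCs and 3.51 CPM in neuroectoderm, whereas the genes that fell had medians of 10.6 and 1.71 CPM. Together the risers took 3.02% to 3.04% of all counts in the hESC libraries and 13.7% to 13.8% in neuroectoderm, and the fallers 25.2% to 25.4% and 9.33% to 9.37%. Protein-coding genes made up 51.2% of the genes that rose, 75.6% of those that fell and 69.4% of all genes tested. For long noncoding RNAs the shares were 32.4%, 13.2% and 17.8%. When libraries were scaled by total counts alone, the median log2 change of all genes moved from 0.03 to 0.23 and the calls to 5708 higher and 3441 lower, so that 62.4% of called genes rose instead of 53.5%. Changes are reported here relative to the TMM scale.

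**Figure D1:**
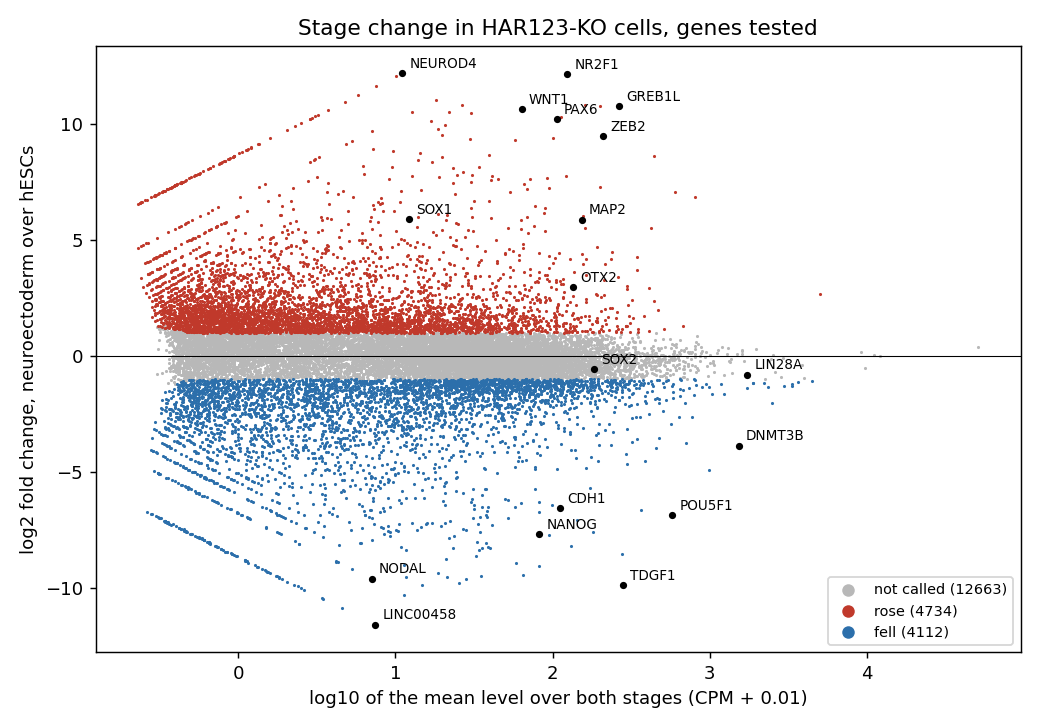
Log2 fold change from hESCs to neuroectoderm in HAR123-KO against the mean level of each gene over both stages, for the 21509 genes tested; red points rose (4734), blue points fell (4112) and grey points were not called, and the outermost straight lines are genes without counts at one stage. TDGF1 and POU5F1 lie far below 0 at high levels, NR2F1, GREB1L and PAX6 far above it, and LIN28A and SOX2 lie among the genes not called.

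Marker sets of 6 genes each were summed to check the labelled stages. The hESC markers (POU5F1, NANOG, LIN28A, DPPA4, TDGF1 and PRDM14) summed to 4656 to 4685 CPM in the HAR123-KO hESC libraries and to 1354 to 1380 CPM in neuroectoderm, and 5 of the 6 fell. The neuroectoderm markers (PAX6, SOX1, OTX2, LHX2, HES5 and SOX11) summed to 213 to 215 CPM in hESCs and to 1070 to 1091 CPM in neuroectoderm, and 5 rose. LHX2, a forebrain and eye field factor, was too low to be tested, at 0.276, 0.328 and 0.300 CPM in hESCs and 0.240, 0.615 and 0.341 CPM in neuroectoderm. Both labelled stages thus carried their defining markers, except for LHX2.

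The neural crest markers moved as well. Their sum was 44.3 to 48.3 CPM in HAR123-KO hESCs and 1107 to 1121 CPM in HAR123-KO neuroectoderm, and all 6 rose. The same sum in neuroectoderm was 96.2 to 100 CPM in hHAR123, 217 to 228 CPM in cHAR123 and 245 to 246 CPM in mHAR123. The neuroectoderm set summed to 2009 to 2055 CPM in hHAR123 neuroectoderm. In RNA from bulk cultures, fewer cells of a type and less RNA of that type per cell cannot be told apart. The part of neural crest markers in the other gene groups below was not tested.

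Markers of other lineages were low in HAR123-KO neuroectoderm. The surface ectoderm set summed to 11.3 to 12.3 CPM against 1.73 to 2.21 CPM in hESCs, with KRT5 and KRT14 at most at 3 counts in every library. The mesoderm set summed to 1.89 to 2.54 CPM against 3.28 to 4.17 CPM, with TBXT, MIXL1, HAND1 and MSGN1 at most at 3 counts in neuroectoderm. The endoderm set summed to 0.120 to 0.231 CPM against 3.13 to 4.08 CPM, with SOX17, FOXA2, GATA4, GATA6 and AFP at most at 3 counts. The neuron set (STMN2, ELAVL4, RBFOX3, SYT1, SNAP25 and NEUROD1) summed to 81.6 to 87.0 CPM in hESCs and 52.6 to 55.4 CPM in neuroectoderm. Of its 6 members 4 rose and 2, RBFOX3 and SYT1, fell.

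**Figure D2:**
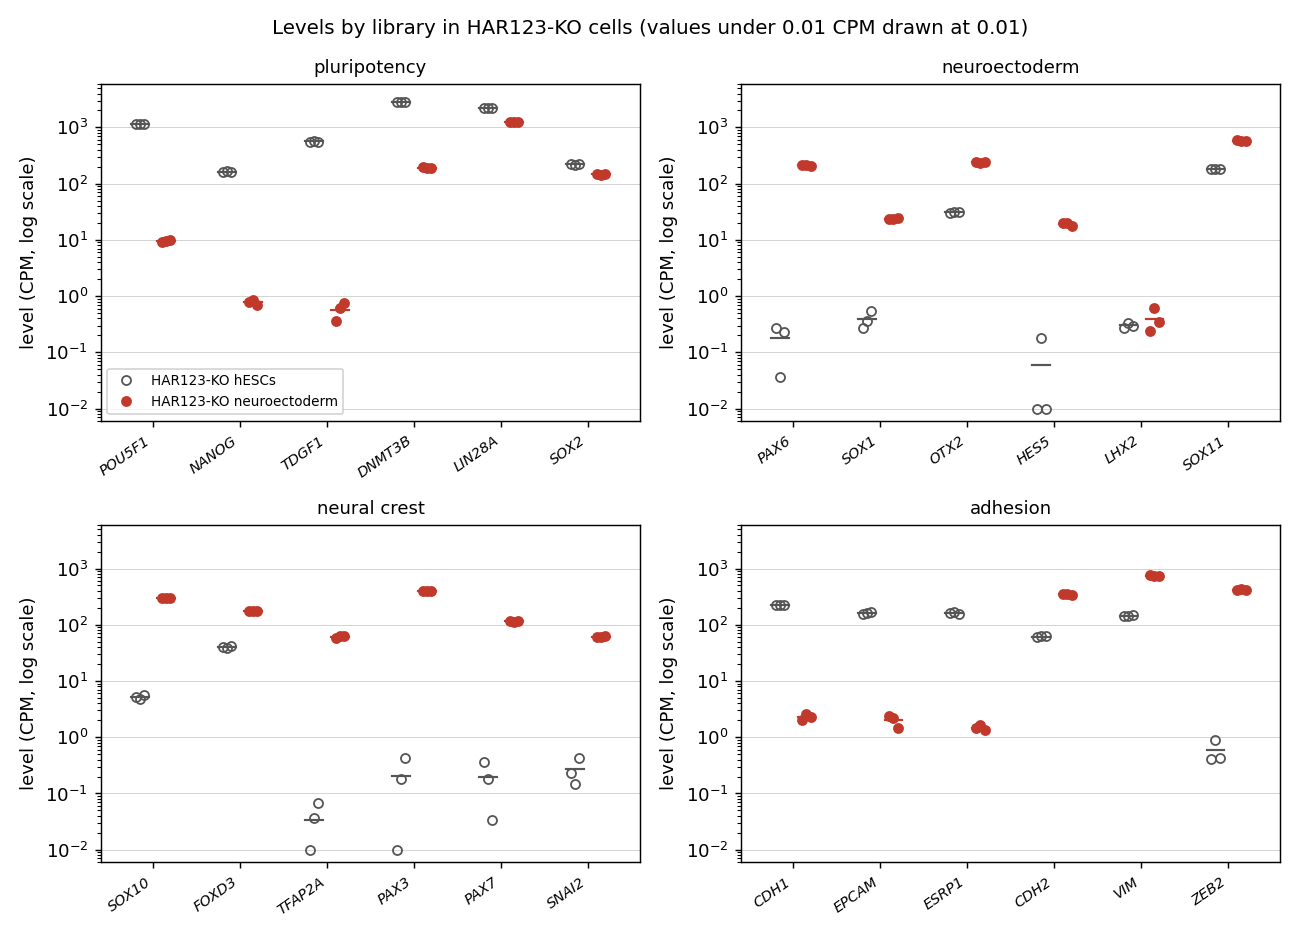
Level of 24 genes in each HAR123-KO library, in CPM on a log axis, with open circles for the 3 hESC libraries, filled circles for the 3 neuroectoderm libraries and a bar at each mean. The 2 stages are separated for every gene drawn but LHX2, and POU5F1, NANOG and TDGF1 fall and PAX6, PAX3 and PAX7 rise by over 100-fold.

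Pluripotency genes fell in the absence of HAR123. Of 20 tested, 14 fell (where 19.1% of all genes did) and none rose, with a median log2 fold change of −3.54 against 0.03 over all genes. POU5F1, which encodes the pluripotency factor OCT4, was at 1134, 1128 and 1171 CPM in the hESC libraries and at 9.35, 9.42 and 10.1 CPM in neuroectoderm. It fell 117-fold (log2 fold change −6.87, standard error 0.04, adjusted p = 6.92e-78, edgeR). NANOG, a homeobox factor of the same network, was at 163, 165 and 163 CPM and then at 0.799, 0.846 and 0.682 CPM, a log2 fold change of −7.69 (standard error 0.07). ZSCAN10, a zinc finger factor of hESCs, had a log2 fold change of −7.09, and PRDM14, which represses germ layer genes in hESCs, one of −6.95. POU5F1 and NANOG have processed copies in the genome, so that some of their reads could have been divided among copies.

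Not all genes of the list followed. LIN28A, an RNA-binding protein that blocks let-7 processing, was at 2219 ± 23.9 CPM in hESCs and 1242 ± 12.7 CPM in neuroectoderm (SD, n = 3 each), a log2 fold change of −0.81 that is past the p threshold and short of the fold threshold. SOX2, which serves both the pluripotency network and the neural plate, was at 219, 217 and 226 CPM in hESCs and at 148, 145 and 147 CPM in neuroectoderm, so that the stages did not overlap and the log2 fold change of −0.57 (standard error 0.03) was not called. In hHAR123 the same gene rose by 1.10, to 494, 501 and 480 CPM. The difference between the 2 genotypes was −1.69 on the log2 scale (adjusted p = 3.9e-36 and standard error 0.04, edgeR's test of the interaction).

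The OCT4 and SOX2 proteins bind side by side to a composite element, and the promoter of NANOG carries the known example. Its letters, CATTGT, any base and ATGCAAA, were searched on both strands of the RefSeq promoter sequences of GRCh38.p14, from 250 bases before to 50 bases after each start. They were found in 3 of 35116 promoters (0.00854%) and, among the members of the pluripotency and Nodal lists, in 1 of 24 with a promoter sequence, that of NANOG. The 30 bases around the match, at chr12:7789274-7789303 on the forward strand, are shown because NANOG has one of the deepest falls of the list. Capitals mark the match, which reads on the opposite strand and lies 120 to 107 bases before the RefSeq start.
NANOG: cagctactTTTGCATTACAATGgccttggt
A match is a description of the letters only.

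Genes of the Nodal pathway, a TGFβ branch that maintains hESCs and that SB431542 blocks, fell together. Of 13 tested, 10 fell and none rose, with a median log2 fold change of −6.20, where 19.1% of all genes fell. TDGF1, the Nodal co-receptor, was at 560, 576 and 549 CPM in hESCs and 0.360, 0.615 and 0.757 CPM in neuroectoderm, which is 943-fold lower (log2 fold change −9.88, standard error 0.06). NODAL itself was at 14.1 ± 0.281 CPM (SD, n = 3) in hESCs and had at most 3 counts in every neuroectoderm library, a level at least 121-fold lower. The inhibitor LEFTY1 fell by 7.51 and the SMAD partner FOXH1 by 6.19 on the log2 scale. The receptor genes ACVR1B, ACVR2A and ACVR2B were the 3 members not called, with log2 fold changes of 0.70, 0.28 and −0.20.

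DNMT3B, the de novo DNA methyltransferase of hESCs, fell from 2862, 2848 and 2886 CPM to 195, 191 and 191 CPM, a log2 fold change of −3.87. TET2, which oxidises 5-methylcytosine, rose from 9.94 ± 1.02 to 77.8 ± 2.96 CPM (SD, n = 3 each), a log2 fold change of 3.01. The other 6 enzymes of DNA methylation and demethylation that were tested, among them DNMT1, DNMT3A and TET1, were not called. In hHAR123 DNMT3B had the same log2 fold change of −3.87, and the difference between genotypes was −0.03 (standard error 0.03).

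The 10 deepest falls among genes at 5 CPM or more were those of LINC00458, VWA2, FOXL2, TDGF1, TMEM30B, LNCPRESS1, GAL, FOXL2NB, NODAL and IDO1. LINC00458, a long noncoding RNA of hESCs on chromosome 13 from 54115783 to 54142319, was at 14.6, 14.9 and 15.1 CPM in hESCs and had no count in any neuroectoderm library, which is at least 128-fold lower. LNCPRESS1, a noncoding RNA of hESCs, was at least 439-fold lower and GAL, the gene of the neuropeptide galanin, at least 484-fold lower. TMEM30B, a flippase subunit, was at least 252-fold lower, and IDO1, which degrades tryptophan, at least 199-fold lower. FOXL2 and its neighbour FOXL2NB were at least 45-fold and at least 122-fold lower. All of these genes also fell in hHAR123 neuroectoderm, and only for VWA2, FOXL2 and GAL of the 10 was the difference between genotypes called, at −5.47, −5.56 and −2.60. For VWA2 that call was lost without hHAR123 ECTO replicate 3, at −4.43.

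The 10 largest rises were those of NEUROD4, NR2F1, BARHL1, ZFHX4-AS1, LINC03025, NR2F2-AS1, CNTN6, TFAP2B, EMX2OS and GREB1L. NR2F1, a nuclear receptor of the early neural plate on chromosome 5 from 93583222 to 93594611, went from 0.0919, 0.0729 and 0 CPM to 246, 246 and 248 CPM, which is at least 2130-fold higher. NEUROD4, a proneural factor, had no count in the hESC libraries and reached 20.4, 21 and 24.7 CPM, at least 190-fold higher. BARHL1, a homeobox factor of the diencephalon and hindbrain, was at least 175-fold higher, and CNTN6, a contactin, at least 82.1-fold higher. GREB1L, a cofactor in retinoic acid signalling, rose from 0.303 ± 0.0421 to 533 ± 2.08 CPM (SD, n = 3 each). NR2F2-AS1, EMX2OS and ZFHX4-AS1 are antisense transcripts, and reads from their partners could not be told apart from theirs without a strand setting. None of the 10 was called in the interaction test against hHAR123. For most of them that test rests on hESC libraries with few or no counts, so a difference could have been missed. NEUROD4 had no count in the hESC libraries of either genotype. TFAP2B reached 322 CPM here and 5.61 CPM in hHAR123, where its level in hESCs was 0. NR2F1 reached 247 CPM here and 76.3 CPM in hHAR123 neuroectoderm, and LINC03025 11.6 and 50.1 CPM.

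Of 26 neuroectoderm genes tested, 18 rose and 1 fell, with a median log2 fold change of 4.88, where 22.0% of all genes rose. PAX6, a homeobox factor needed for human neuroectoderm, was at 0.276, 0.0365 and 0.233 CPM in hESCs and at 214, 212 and 208 CPM in neuroectoderm, a log2 fold change of 10.21 (adjusted p = 3.09e-67 and standard error 0.09, edgeR). SOX1, the earliest SOX factor restricted to the neural plate, rose from 0.391 ± 0.131 to 23.9 ± 0.212 CPM and OTX2, which marks forebrain and midbrain, from 30.9 ± 0.830 to 238 ± 3.54 CPM (SD, n = 3 each). HES5, a Notch target of neural progenitors, had counts in only 1 hESC library and reached 19.7, 19.6 and 17.6 CPM. NR2F2 rose by 10.32 on the log2 scale to 227 CPM. The single member that fell was SOX4, at −1.15, and its change was −0.95 and no longer called with total counts alone. NES, the gene of the intermediate filament nestin, was not called, with a log2 fold change of −0.28, and nor were SOX2, SOX3, ZIC2, ZIC5 and POU3F1.

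In hHAR123, 22 of 27 of these genes rose and 2 fell, with a median of 4.53, where 45.9% of all genes changed. The difference between the stage changes was called for 13 of the 27, higher in HAR123-KO for 6 and lower for 7, where 3.84% and 4.03% of all genes were called (7.87% together). Those lower were SOX1 (−1.77), SOX2 (−1.69), SOX3, SOX21, POU3F1, POU3F2 and NES (−1.54). Those higher included ZIC1 (1.84), ZIC2 (1.19), ZIC5, MEIS2 (2.33) and FABP7. PAX6 reached 407, 406 and 405 CPM in hHAR123 neuroectoderm, above every HAR123-KO library, but the difference of the stage changes, −0.77 (standard error 0.49), was not called, and the hESC levels behind it rest on few counts. For HES5 the levels were 147, 159 and 155 CPM in hHAR123 against at most 19.7 in HAR123-KO, and the difference of −2.56 was not called either (adjusted p = 0.041, edgeR). It was called with DESeq2, at −2.52, and without HAR123-KO ESC replicate 3, at −3.21, and it turned to 1.30 (adjusted p = 0.468, edgeR) without HAR123-KO ESC replicate 2.

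Of the forebrain list, 10 of 16 genes had enough counts, and 7 rose and 2 fell, where 22.0% and 19.1% of all genes did. EMX2, a factor of the dorsal forebrain, was at least 220-fold higher in neuroectoderm, at 24.2, 26.7 and 25.5 CPM. FEZF2, a zinc finger factor of the anterior neural plate, was at least 56.1-fold higher and reached 6.71, 6.65 and 6.10 CPM. EMX1 and HESX1 fell by 2.51 and 1.74 on the log2 scale. SIX3, a factor of the most anterior neural plate, rose from 0.157 to 0.895 CPM (log2 fold change 2.44, standard error 0.41). RAX, the eye field factor, was too low to be tested at 0.719, 0.192 and 0.644 CPM in neuroectoderm.

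Against hHAR123, none of 12 forebrain genes had a higher stage change in HAR123-KO (3.84% of all genes did) and 6 had a lower one (4.03% of all genes), among them RAX (−3.79), SIX3 (−1.97), FEZF1, EMX1 (−1.79) and NR2E1 (−6.43). In hHAR123 neuroectoderm RAX was at 8.17, 9.50 and 9.49 CPM. NR2E1, a nuclear receptor of neural stem cells, was at 22.7, 23.3 and 21.7 CPM in hHAR123 and at 0.599, 0.462 and 0.417 CPM in HAR123-KO. The NR2E1 call was lost without HAR123-KO ESC replicate 2 (−3.75), the 1 hESC library of HAR123-KO with counts of it. The SIX3 call, at an adjusted p of 0.00933 (edgeR), was lost without 8 of the 12 libraries in turn, where the difference lay between −2.05 and −1.56, and with the replicate block (−1.99).

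Genes of midbrain and hindbrain mostly rose. Of 16 midbrain and hindbrain genes tested, 12 rose and 3 fell, where 22.0% and 19.1% of all genes did. The median log2 fold change was 5.64. The stage change was higher than in hHAR123 for 5 of 17 (3.84% of all genes) and lower for 3 (4.03%), with a median difference of 0.54. WNT1, the signal of the midbrain-hindbrain boundary and the dorsal midline, went from at most 3 counts in each hESC library to 127 CPM in every neuroectoderm library, which is at least 1100-fold higher. PAX2, a boundary factor, rose by 9.35 on the log2 scale to 59.9 CPM, and LMX1A, a roof plate factor, was at least 344-fold higher at 39.8 CPM. GBX2 and IRX4 fell, to levels at least 14.0-fold and at least 15.4-fold lower. WNT1 was at 6.77 CPM and PAX2 at 5.77 CPM in hHAR123 neuroectoderm. Neither difference was called, at 0.12 and 0.82, with levels of 0 and 0.0118 CPM in hHAR123 hESCs. None of the 15 HOX genes of the list, which mark hindbrain and spinal cord, had enough counts to be tested.

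Neural crest genes had the largest share that rose of all lists. Of 17 tested, 14 rose and none fell, where 22.0% and 19.1% of all genes did, with a median log2 fold change of 4.38. PAX3, on chromosome 2 from 222199887 to 222298998, was at 0, 0.182 and 0.433 CPM in hESCs and at 404, 399 and 391 CPM in neuroectoderm (log2 fold change 10.77, standard error 0.08, adjusted p = 3.09e-70, edgeR). TFAP2B, an AP-2 factor of crest and border ectoderm, went from 0.138, 0.219 and 0.167 CPM to 322, 317 and 327 CPM. SOX10, which defines migratory crest, rose from 5.15, 4.85 and 5.6 CPM to 305, 299 and 305 CPM. TFAP2A was at least 523-fold higher and SNAI2, a driver of the epithelial to mesenchymal transition, 222-fold higher. PAX7 rose from 0.194 ± 0.167 to 115 ± 3.13 CPM (SD, n = 3 each). SNAI1, SOX8 and B3GAT1 were the 3 members not called, with log2 fold changes of −0.76, 0.06 and 0.06.

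In hHAR123, 9 of 16 neural crest genes rose and 4 fell, with a median of 1.78. The stage change was higher in HAR123-KO for 11 of 17 genes and lower for none, beside 3.84% and 4.03% of all genes. The median difference was 3.36 against −0.01 over all genes. The differences were 6.81 for PAX7 (standard error 0.56), 6.36 for FOXD3 (standard error 0.09), 5.08 for SNAI2, 4.47 for SOX10 and 4.27 for TFAP2A, each called with edgeR's interaction test. In hHAR123 neuroectoderm SOX10 was at 10.5, 10.7 and 11.2 CPM and PAX7 at 1.67, 1.81 and 1.67 CPM, below every HAR123-KO library. PAX3 was at 78.3, 73.8 and 74.9 CPM there, also below every HAR123-KO library, but its difference of −1.48 was not called and has the other sign. PAX3 was at 0.0105 CPM in hHAR123 hESCs. Against the mean of cHAR123 and mHAR123, 10 of the 17 were higher and none lower, where 3.35% of all genes were higher.

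BMP signalling genes changed in a medium that contains the BMP inhibitor Noggin. Of 17 BMP ligands and antagonists tested, 13 rose and 2 fell, where 22.0% and 19.1% of all genes did. The median log2 fold change was 1.92. BMP5 was at least 291-fold higher, at 32.3, 34.7 and 34.0 CPM, and GDF7, a roof plate ligand, rose by 7.95 on the log2 scale to 52.0, 52.7 and 55.7 CPM. BMP4 was at 5.70, 4.81 and 4.87 CPM in hESCs and at 18.7, 18.5 and 19.4 CPM in neuroectoderm, a rise of 1.92 (standard error 0.09). In hHAR123 BMP4 fell by 1.45, from 2.32 to 0.849 CPM, and the difference was 3.35 (adjusted p = 1.29e-18 and standard error 0.21, edgeR's test of the interaction). BMP6 fell by 4.42, and NBL1, an antagonist of the DAN family, by 1.71. NOG, the gene of Noggin itself, rose from 0.249 to 19.2 CPM in HAR123-KO and from 0.258 to 2.97 CPM in hHAR123.

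Among 10 genes known to respond to BMP, 5 rose and 2 fell, where 22.0% and 19.1% of all genes did. The homeobox genes MSX1 and MSX2, which mark the dorsal neural tube and its border, rose by 6.09 and 6.25 on the log2 scale, to 41.7 ± 1.34 and 16.4 ± 1.35 CPM (SD, n = 3 each). SMAD7 and BAMBI, feedback inhibitors of TGFβ and BMP signalling, fell by 3.19 and 3.18. Set against hHAR123, HAR123-KO had a higher stage change for 5 of the 10, MSX1 (2.84), MSX2 (3.83), ID1, ID2 and ID3, and lower for ID4, beside 3.84% and 4.03% of all genes. ID1 was at 46.7 and 25.3 CPM in the stages of HAR123-KO and ID3 at 75 and 89.9 CPM, neither called, whereas both fell in hHAR123, by 2.25 and 1.42.

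Of 40 WNT pathway genes tested, 23 rose and 9 fell, where 22.0% and 19.1% of all genes did, with a median log2 fold change of 2.13. The ligand WNT1 (above) and RSPO3, which amplifies WNT signals, had the largest fitted rises. RSPO3 had no count in hESCs and was at 5.51, 5.58 and 5.94 CPM in neuroectoderm, at least 49.1-fold higher. The secreted antagonists SFRP5 and WIF1 had the deepest falls, SFRP5 to a level at least 30.9-fold lower and WIF1 by 4.54 on the log2 scale. Antagonists moved both ways, as DKK1, NOTUM and FRZB rose by 5.85, 3.76 and 3.48. SFRP1 and SFRP2 fell, with log2 fold changes of −1.37 and −2.19, and DKK3 was not called (−0.84). The target genes AXIN2 and LEF1, picked here after their values were seen, rose by 3.18 and 7.57. SP5, picked likewise, was at least 360-fold higher. TCF7 and LGR5 of the same list were not called, at −0.30 and 0.73. Against hHAR123 8 of 41 were higher and 9 lower, beside 3.84% and 4.03% of all genes, so members differed in both directions.

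FGF pathway genes mostly fell. Of 24 tested, 16 fell and 4 rose, with a median log2 fold change of −1.76, where 19.1% of all genes fell. FGF4, a ligand of hESCs, was at 1.42, 1.06 and 1.37 CPM and had no count in neuroectoderm, at least 11-fold lower. FGF19, an endocrine ligand, fell by 7.0 on the log2 scale. The feedback and target genes DUSP6 and SPRY4, named after their values were seen, fell from 196 to 2.20 CPM and from 338 to 6.37 CPM. FGF9 and FGF17, expressed in the early brain, rose by 2.12 and 1.98. None of 24 had a higher stage change than in hHAR123, where 10 of 22 fell, and 10 had a lower one, among them FGF4 (−5.58) and FGF9 (−2.21). Over all genes the shares were 3.84% higher and 4.03% lower.

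In the Notch pathway 6 of 18 genes rose and 2 fell, where 22.0% and 19.1% of all genes did. The ligand DLL1 rose from 3.17, 2.33 and 3.40 CPM to 55.9, 51.0 and 56.5 CPM, and HES4, a Notch target, by 5.34 on the log2 scale. HES6 and HEY2 fell by 2.02 and 1.48. DLL1 reached 208, 217 and 220 CPM in hHAR123, and its stage change in HAR123-KO was lower by 2.22 on the log2 scale (standard error 0.15). The receptors NOTCH1, NOTCH2 and NOTCH3 were not called in HAR123-KO, with log2 fold changes of −0.25, 0.93 and −0.39.

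Of 11 Hedgehog pathway genes, 4 rose and 1 fell, where 22.0% and 19.1% of all genes did. The co-receptors BOC and GAS1 had the largest rises, by 5.53 and 5.32 on the log2 scale. The target gene GLI1 was the single member that fell, from 19 ± 0.472 to 0.426 ± 0.0982 CPM (SD, n = 3 each). In the retinoic acid pathway 6 of 16 rose and 4 fell, beside the same 22.0% and 19.1% of all genes. CRABP2, which carries retinoic acid to its receptors, rose from 26.9, 24.7 and 27.7 CPM to 408, 403 and 396 CPM, and the degrading enzyme CYP26B1 by 2.84 on the log2 scale. DHRS3 and ALDH1A1, enzymes of retinaldehyde and retinoic acid, fell by 4.01 and 3.50. In hHAR123 CRABP2 was not called, at 28.1 and 45.6 CPM, and the difference was 3.23 (standard error 0.06). The stage change was higher than in hHAR123 for 7 of the 16 and lower for 1, beside 3.84% and 4.03% of all genes.

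Of 21 cell adhesion genes tested, 11 rose and 6 fell, where 22.0% and 19.1% of all genes did. CDH1, the epithelial cadherin, fell from 220 CPM in every hESC library to 2.0, 2.54 and 2.31 CPM (log2 fold change −6.56, standard error 0.06), and CDH2, the neural cadherin, rose from 60.3, 61.9 and 62.1 to 349, 346 and 342 CPM. ESRP1, the epithelial splicing regulator, had a log2 fold change of −6.75 and EPCAM, an epithelial adhesion protein, one of −6.32. ZEB2, a repressor of CDH1, rose from 0.414, 0.911 and 0.433 to 422, 424 and 418 CPM. CDH10 was at least 15.8-fold higher. The difference from hHAR123 was called for 5 of the 21, beside 7.87% of all genes, and neither for CDH1 (−0.72) nor for CDH2 (−0.96, and −1.02 and called with total counts alone).

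Of 34 axon guidance genes, 21 rose and 3 fell, where 22.0% and 19.1% of all genes did. The median log2 fold change was 1.68. RELN, the extracellular glycoprotein reelin, was at 0.873, 0.802 and 1.03 CPM in hESCs and at 179, 184 and 186 CPM in neuroectoderm (log2 fold change 7.67, standard error 0.07). DCC, a netrin receptor, rose by 6.37. SEMA3D and SEMA6A fell by 2.57 and 2.49. In hHAR123 neuroectoderm RELN was at 2.91, 2.26 and 1.79 CPM, and its stage change in HAR123-KO was higher by 6.40 (standard error 0.31). The stage change of 9 of the 34 was higher than in hHAR123 and of 1 lower, beside 3.84% and 4.03% of all genes.

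Neuronal genes rose in 16 of 21 cases and fell in 3, where 22.0% and 19.1% of all genes did. POU4F1, a factor of sensory neurons, went from 0.276, 0.401 and 0.233 to 203, 204 and 199 CPM, with a stage change higher than in hHAR123 by 3.06 (standard error 0.44). RBFOX3, which marks mature neurons, fell by 3.42 and NHLH2 by 1.55. Glial genes were mixed, with 3 of 10 rising and 4 falling, beside the same 22.0% and 19.1% of all genes. S100B and PDGFRA rose by 5.33 and 3.41 on the log2 scale, and MBP and NFIB had log2 fold changes of −5.77 and −4.66. Of 29 matrix and integrin genes 9 rose and 9 fell, again beside 22.0% and 19.1% of all genes. COL1A2, a fibrillar collagen chain, rose from 105, 102 and 102 to 554, 533 and 528 CPM, and COL2A1 by 2.18. ITGB5 and ITGA1 fell by 3.83 and 2.96. COL1A2 was not called in hHAR123 (−0.44), and the difference was 2.82 (standard error 0.05).

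Lists for other germ layers had few members with enough counts. Of 15 surface ectoderm genes tested, 5 rose and 7 fell, where 22.0% and 19.1% of all genes did. The epithelial genes CDH1 and EPCAM led the falls, and DLX3 and GRHL3, factors of the non-neural border, rose by 3.38 and 3.01, to 2.90 and 7.83 CPM. Of 16 mesoderm genes only 6 could be tested, of which 3 fell and 2 rose. MIXL1, a primitive streak factor, was at least 11.1-fold lower and TCF15 fell by 3.96. MEOX1 rose by 3.60, to 1.25 CPM, and FOXC1 by 1.25, to 0.682 CPM, a call that was lost without any of HAR123-KO ECTO replicate 2 (0.82), ESC replicate 1 (0.90) and ESC replicate 3 (1.17). Of 12 endoderm genes 5 could be tested. AFP and FOXA2 were at least 19-fold and at least 10.6-fold lower, FOXA3 fell, and CXCR4, a chemokine receptor also expressed by neural and crest progenitors, rose from 0.951 to 49.2 CPM. FOXA1 was at least 10.9-fold higher, at 1.27 CPM.

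**Figure D3:**
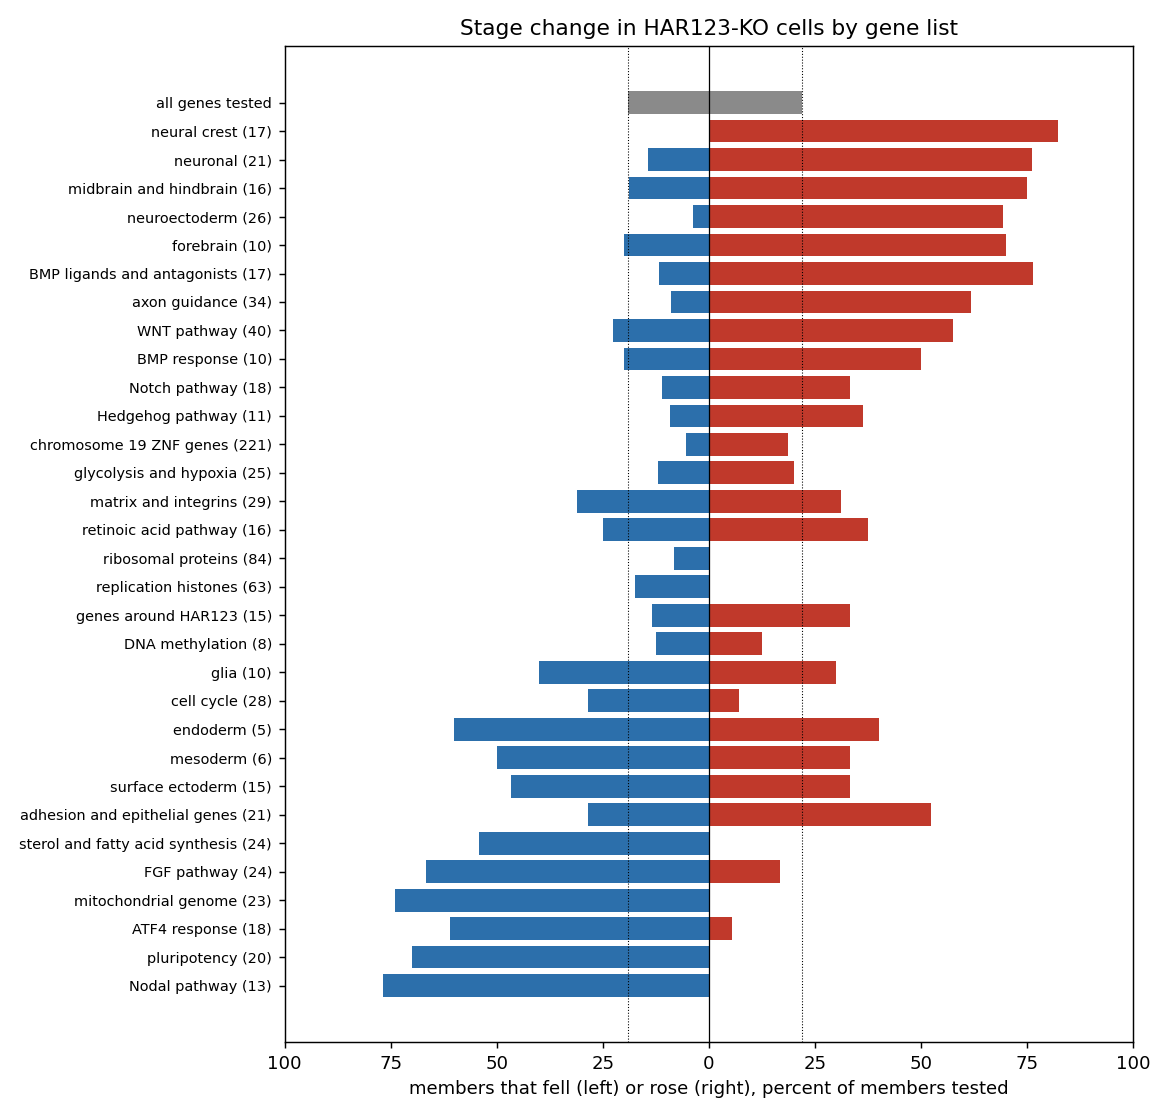
Percent of the tested members of each gene list that fell (blue, to the left) or rose (red, to the right) from hESCs to neuroectoderm in HAR123-KO, with the number tested in brackets and, in grey and as dotted lines, the shares over all 21509 genes tested (19.1% and 22.0%). Neural crest, neuronal and brain region lists lie far to the right, and Nodal, pluripotency and mitochondrial genome lists far to the left; HOX genes are not drawn since none could be tested.

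Of 28 cell cycle genes, 8 fell and 2 rose, where 19.1% and 22.0% of all genes did. MYC, a growth regulator, fell from 115, 109 and 112 to 3.84, 4.08 and 3.98 CPM and CCNE1, the G1/S cyclin, by 1.77 on the log2 scale. CDKN1C and CDKN1B, inhibitors of cyclin-dependent kinases, rose by 2.04 and 1.69. MKI67, a marker of cycling cells, was at 714 and 527 CPM and was not called. With total counts alone 4 cell cycle genes fell instead of 8. Of 63 replication-dependent histone genes 11 fell and none rose, where 19.1% of all genes fell, and with total counts alone 6 fell. In hHAR123 43 of 63 fell, where 21.2% of all genes did. The median log2 fold changes were −0.57 in HAR123-KO and −1.19 in hHAR123. The difference between genotypes was called higher for 4 and lower for 2 of the 63, beside 3.84% and 4.03% of all genes. Histone genes are near-identical copies, and their transcripts mostly lack poly(A) tails.

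Of 24 genes of sterol and fatty acid synthesis, 13 fell and none rose, where 19.1% of all genes fell. The median log2 fold change was −1.13. DHCR7, the last enzyme of one route to cholesterol, fell from 149, 150 and 148 to 41, 39.5 and 37.5 CPM, a log2 fold change of −1.90. SREBF2, the transcription factor of the pathway, was not called, at −0.20. In hHAR123 19 of the 24 fell, with a median of −1.54. The difference between genotypes was called for 1 of the 24, beside 7.87% of all genes.

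Of 18 genes of the ATF4 response to amino acid shortage and stress, 11 fell and 1 rose, where 19.1% and 22.0% of all genes did. SLC7A5, a transporter of large neutral amino acids, fell by 4.55 on the log2 scale and CHAC1, which degrades glutathione, by 3.78. ATF4 itself fell by 1.5. DDIT4, an inhibitor of mTORC1 signalling, rose from 25.6, 24.2 and 24.3 to 449, 440 and 439 CPM. Of 25 glycolysis and hypoxia genes, 5 rose and 3 fell, shares no higher than the 22.0% and 19.1% of all genes. NDRG1 and BNIP3, which respond to low oxygen, rose by 3.73 and 3.35, and HK1 and ADM fell by 1.89 and 1.42. Mitochondrial genome transcripts fell in 17 of 23 cases and rose in none, with a median log2 fold change of −1.31. Of 84 cytosolic ribosomal protein genes 7 fell and none rose, with a median of −0.01, and copies of these genes make their values uncertain. Of 221 zinc finger genes of chromosome 19, 41 rose (18.6%) and 12 fell, again no higher than the shares of all genes.

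Of 15 genes around HAR123 on chromosome 17, 5 rose and 2 fell, where 22.0% and 19.1% of all genes did. RTN4RL1, a receptor of the Nogo family, rose from 0.184, 0.109 and 0.0666 to 25.5, 25.9 and 25 CPM (log2 fold change 7.77). SRR, serine racemase, rose by 2.35. SERPINF2 and TSR1 fell by 2.21 and 1.43. The stage change differed from hHAR123 for none of the 15 at the thresholds, beside 7.87% of all genes.

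The stage change was then set against that of hHAR123, fitted the same way on libraries that HAR123-KO does not share. In hHAR123, 5491 of 22280 genes rose (24.6%) and 4731 fell (21.2%). Of the genes that rose, 3684 did so in both genotypes, which is 77.8% of those in HAR123-KO and 67.1% of those in hHAR123. Of the genes that fell, 3407 did so in both, which is 82.9% and 72.0%. The difference itself was tested as an interaction over 12 libraries, and 888 of 23113 genes had a higher stage change in HAR123-KO (3.84%) and 932 a lower one (4.03%). Most of these, 826 and 859, had more than 3 counts in at least 1 library of each of the 4 groups. Of the 888, 402 rose in HAR123-KO, 157 fell, 325 were not called and 4 were too low to be tested. Of the 932, 405 fell, 165 rose, 295 were not called and 67 were too low to be tested. The genes with a called difference are thus a minority on each side of the line of equal change. Without the fold threshold 4292 genes were higher and 3215 lower, and how near the other genes lie to the line was not measured.

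**Figure D4:**
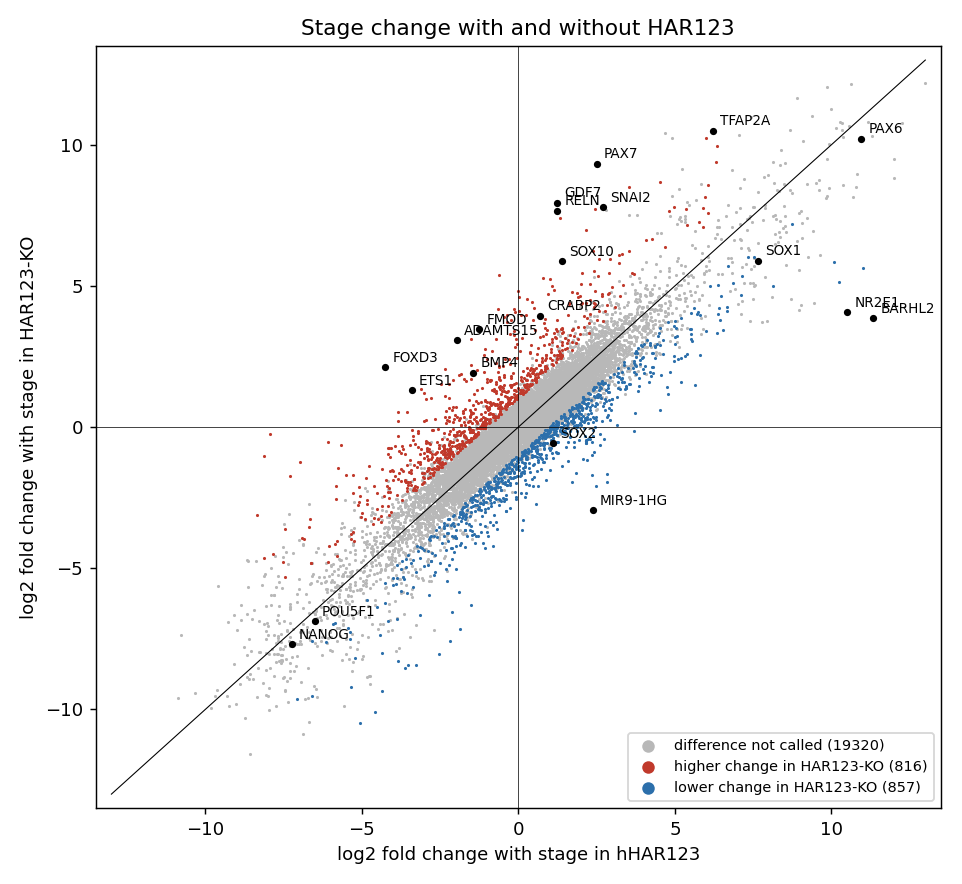
Log2 fold change from hESCs to neuroectoderm in HAR123-KO (vertical axis) against hHAR123 (horizontal axis), 1 point per gene tested in both, in red where the interaction test called the change higher in HAR123-KO and in blue where it called it lower; the diagonal marks equal change. FOXD3, ETS1, ADAMTS15, FMOD and BMP4 lie in the upper left part, where genes rose in HAR123-KO and fell in hHAR123, and MIR9-1HG lies in the lower right part.

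The direction was opposite for 43 genes, 30 that rose in HAR123-KO and fell in hHAR123 and 13 that fell in HAR123-KO and rose in hHAR123, and for each of them the difference was called. FOXD3, a forkhead factor of neural crest on chromosome 1 from 63322567 to 63325128, had the largest difference of the first kind. It was at 40.3, 38.9 and 41.8 CPM in HAR123-KO hESCs and rose to 174, 174 and 173 CPM, while it fell in hHAR123 from 43.6 CPM to 2.05, 2.45 and 2.29 CPM. ETS1, an ETS factor of crest and endothelium, rose from 82.4 ± 1.08 to 200 ± 3.74 CPM in HAR123-KO and fell from 73.1 to 6.86 CPM in hHAR123, a difference of 4.69 (standard error 0.06). The neuroectoderm libraries of the 2 genotypes did not overlap for either gene, nor did the hESC libraries for ETS1, while those for FOXD3 did. The other 3 named by the rule were ADAMTS15, a proteoglycan-cleaving protease (difference 5.02), FMOD, the proteoglycan fibromodulin (4.70), and SLC24A4, an ion exchanger (4.43).

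MIR9-1HG, the noncoding host transcript of a miR-9 gene on chromosome 1 from 156404250 to 156456763, had the largest difference of the second kind. It was at 5.65, 5.07 and 5.13 CPM in HAR123-KO hESCs and at 0.440, 1.0 and 0.568 CPM in neuroectoderm, a log2 fold change of −2.94 (standard error 0.20). In hHAR123 it rose from 5.45 CPM to 26.6, 29.2 and 28.9 CPM, and the difference was −5.34 (adjusted p = 8.51e-28 and standard error 0.20, edgeR's test of the interaction). FAM107A (−4.81), LRRC3B (−4.61), ST8SIA6 (−4.52), which encodes a sialyltransferase, and KCNQ3 (−4.04), a potassium channel subunit, followed. For all 5 the neuroectoderm libraries of HAR123-KO lay below and those of hHAR123 above the hESC libraries of both genotypes.

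**Figure D5:**
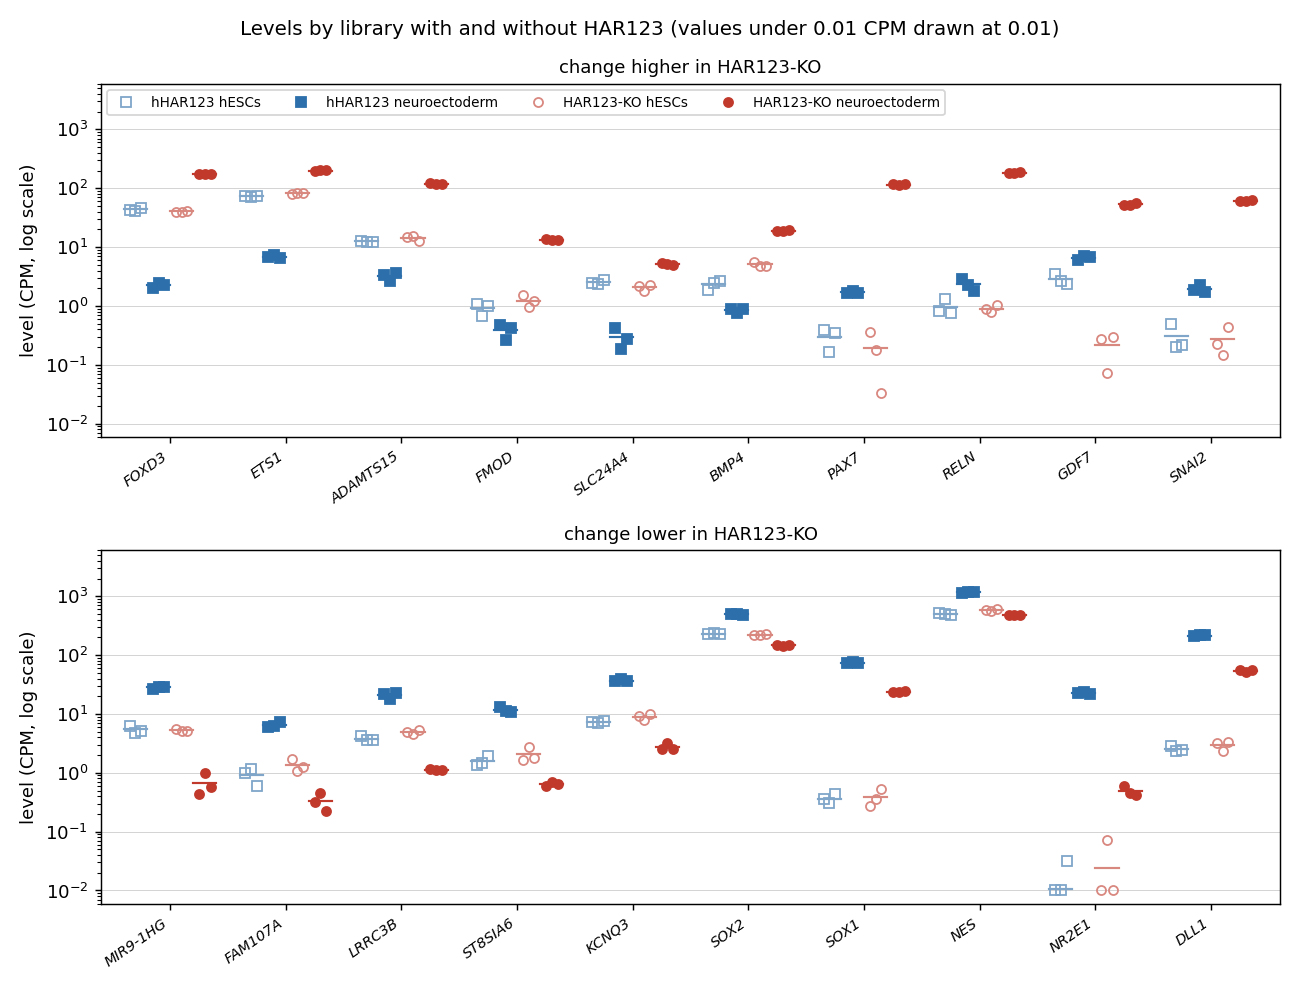
Level of 20 genes in each library of hHAR123 (squares) and HAR123-KO (circles), in CPM on a log axis, open for hESCs and filled for neuroectoderm, with a bar at each mean. For FOXD3, ETS1 and BMP4 the filled circles lie above and the filled squares below the open symbols of their genotype, and for MIR9-1HG, FAM107A, LRRC3B, ST8SIA6 and KCNQ3 the order is the other way around.

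Among genes at 5 CPM or more in a group, the largest differences in favour of HAR123-KO were those of PRSS56 (7.16), PAX7 (6.81), GDF7 (6.69), RELN (6.40), FOXD3 (6.36), CPED1 (6.10), KANK4 (6.06) and PDYN (6.00). KANK4, a regulator of actin, went from 0.792 ± 0.421 to 130 ± 3.08 CPM (SD, n = 3 each) and stood at 2.0 CPM in hHAR123 neuroectoderm. PDYN, the gene of the opioid precursor prodynorphin, reached 20.1, 18.6 and 20.0 CPM and stood at 0.421 CPM in hHAR123 neuroectoderm. PRSS56, a serine protease of crest-derived boundary cap cells, was at 13.8, 14.7 and 13.7 CPM and at least 121-fold above HAR123-KO hESCs, and its difference lost the call without hHAR123 ESC replicate 2 (6.33). GDF7 was also lower at the start, at 0.216 CPM in HAR123-KO hESCs and 2.83 CPM in hHAR123 hESCs. In cHAR123 and mHAR123 hESCs GDF7 was at 0.196 and 0.147 CPM, and its difference from their mean change was 1.85.

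Among the largest differences the other way were those of BARHL2 (−7.45), NR2E1 (−6.43), FOXL2 (−5.56), VWA2 (−5.47), MIR9-1HG (−5.34), MYH2 (−5.33) and LINC00404 (−5.32). BARHL2, a homeobox factor of the diencephalon and retina, was at 0.559, 0.769 and 0.492 CPM in HAR123-KO neuroectoderm and at 11.5, 11.2 and 12.6 CPM in hHAR123. MYH2, a myosin heavy chain, was at least 86.1-fold lower in HAR123-KO neuroectoderm than in its hESCs. Several of these calls rest on few hESC counts. BARHL2 lost its call without HAR123-KO ESC replicate 1 (−4.25), and LINC00404 without HAR123-KO ESC replicate 2 (−4.97), HAR123-KO ESC replicate 3 (−5.02) or hHAR123 ESC replicate 3 (−5.30).

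Against the mean stage change of cHAR123 and mHAR123, the stage change of HAR123-KO was higher for 800 of 23858 genes (3.35%) and lower for 519 (2.18%). Of the genes that differed from hHAR123, 600 of the 888 higher and 437 of the 932 lower were called in this comparison in the same direction; the 2 comparisons share the HAR123-KO libraries. The mean over both replacement genotypes was used because the study's supplementary table and the column labels disagree on which neuroectoderm libraries carry which ortholog, and the mean does not depend on it. FOXD3 was at 174 CPM in HAR123-KO neuroectoderm and at 12.1 and 17.8 CPM in the libraries labelled cHAR123 and mHAR123, and its difference from their mean change was 3.44. For PAX7 the levels were 115, 11.1 and 9.09 CPM and the difference 4.41. For MIR9-1HG they were 0.669, 19.4 and 18.2 CPM and the difference −4.75. The sums of neural crest markers in both replacement genotypes lay between those of hHAR123 and HAR123-KO, as given above.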

How the data were processed

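RNA was sequenced by the authors from H9 cells as paired-end, rRNA-depleted libraries, aligned to GRCh38 with STAR 2.5.2b (version from the submitters' processing notes), and exon reads were counted with featureCounts for each Ensembl gene. The deposited table holds these raw counts for 61552 genes. Whether counting used strand is not given in the sources used here, so overlapping, antisense and near-identical genes are uncertain. The entry of ANK2, broken over 3 lines, was left out, leaving 61551 genes. Libraries were grouped by genotype and stage from the labels. The libraries of a genotype came from a pair of clones, and the labels do not give the clone or culture of each, so p-values measure the spread among these libraries, which may in part be technical, and intervals and floors cover counting error only.

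Counts were fitted in R 4.3.3 with edgeR 4.0.16 (filterByExpr, TMM, quasi-likelihood F test, Benjamini-Hochberg adjustment over all genes tested), separately for the 6 libraries of each genotype and as interactions over 12 or 18 libraries. CPM values use TMM factors over all 24 libraries. Standard errors follow from F, as the absolute log2 fold change over its square root. The alternatives were DESeq2 1.42.0, its size factors, total counts alone, no filter, all 24 libraries in one fit, the replicate block, other thresholds and leaving out each library. Tables were made with Python 3.11.15.

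The members and gene lists were chosen with earlier results of these data known. The thresholds for a call were those of the study. Genes named are the 10 largest rises and falls at 5 CPM or more, the 2 largest called changes each way per list, 18 fixed genes, the 8 largest differences from hHAR123 each way, up to 5 genes with opposite direction each way, and the 7 marker sets, some of which are not reported here. Other genes in the text are members of the lists and were named after their values were seen. Replicate chi-square per degree of freedom within HAR123-KO was 1.40 to 4.97, so no library was counted as a copy.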

Additional observations from a re-analysis of the deposited data

Results flagged for a closer look

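A difference between genotypes in the stage change, by edgeR's interaction test, was called for 888 genes higher and 932 lower in HAR123-KO than in hHAR123, and for 800 higher and 519 lower than in the mean of cHAR123 and mHAR123. Among the genes chosen by the rules and the marker sets, 53 of those reported here differed from hHAR123, 27 higher and 26 lower. All values below are differences of the log2 stage change, HAR123-KO minus hHAR123.

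Among the named genes of crest, border and dorsal neural tube, higher changes were 6.81 (PAX7), 6.69 (GDF7), 6.36 (FOXD3), 5.08 (SNAI2) and 4.69 (ETS1). Smaller ones were 4.47 (SOX10), 4.27 (TFAP2A), 3.83 (MSX2), 3.35 (BMP4), 2.84 (MSX1), 2.67 (GATA3) and 1.93 (DLX3). PAX3 (−1.48), TFAP2B (0.57) and WNT1 (0.12) were not called. In the whole neural crest list 11 of 17 genes were higher and none lower, beside 3.84% and 4.03% of all genes. In the BMP ligand list 6 of 17 were higher and 2 lower (BMP6 and NBL1). The BMP response list had 5 of 10 higher and 1 lower, and the surface ectoderm list 3 of 17 and 1. Other genes were higher by 7.16 (PRSS56), 6.40 (RELN), 6.10 (CPED1), 6.06 (KANK4), 6.00 (PDYN), 5.77 (S100B), 5.02 (ADAMTS15), 4.70 (FMOD), 4.43 (SLC24A4), 3.23 (CRABP2), 3.06 (POU4F1), 2.82 (COL1A2), 2.15 (PDGFRA), 1.65 (DCC) and 1.25 (HEY2). For GATA3 the levels were low, 1.03 CPM in HAR123-KO neuroectoderm and 0.0653 CPM in hHAR123.

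Lower changes among the named genes of neural plate, forebrain and Notch signalling were −7.45 (BARHL2), −6.43 (NR2E1), −5.34 (MIR9-1HG), −3.79 (RAX), −2.22 (DLL1), −1.97 (SIX3), −1.82 (HES4), −1.79 (EMX1), −1.77 (SOX1), −1.76 (NHLH2) and −1.69 (SOX2). In the whole neuroectoderm list 6 of 27 genes were higher and 7 lower, and in the Notch list 1 of 18 (HEY2) and 4. In the forebrain list none of 12 was higher and 6 were lower. Over all genes the shares were 3.84% higher and 4.03% lower. Other genes were lower by −5.58 (FGF4), −5.56 (FOXL2), −5.47 (VWA2), −5.33 (MYH2), −5.32 (LINC00404), −4.81 (FAM107A), −4.61 (LRRC3B), −4.52 (ST8SIA6), −4.04 (KCNQ3), −2.60 (GAL), −2.38 (BMP6), −2.21 (FGF9), −1.81 (NBL1), −1.39 (MYC) and −1.37 (SYT1).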

How the results depend on the processing

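The counts of genes called in the stage change and its differences were within 1.5 times of the reported ones in 140 of 148 alternative values. The 8 exceptions were all without the fold threshold, with 8552 genes higher and 8485 lower in HAR123-KO, 8983 and 8856 in hHAR123, 4292 and 3215 for the difference from hHAR123, and 3323 and 3182 for the difference from cHAR123 and mHAR123. Without each library in turn the counts were 4760 to 4903 higher and 4176 to 4284 lower in HAR123-KO, and 831 to 892 and 875 to 910 for the difference from hHAR123. DESeq2 gave 4340 and 4111 in HAR123-KO. With total counts alone 65.5% of the genes called in hHAR123 rose, against 53.7% with TMM. No pairing by replicate number was seen, as the deviations of same-numbered HAR123-KO libraries correlated by only 0.009, 0.023 and 0.007. This cannot exclude pairing, since deviations made mostly of counting noise would not correlate in paired libraries either. With the replicate block 4692 genes were higher and 4101 lower, and of the named results the block changed the call of SIX3 alone. The one result that reversed was the difference of HES5, from −2.56 to 1.30 without HAR123-KO ESC replicate 2, the only HAR123-KO hESC library with HES5 counts (adjusted p = 0.468, edgeR); without single libraries it lay between −3.29 and 1.30.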
